A study of Mus musculus with 15 samples.

Results

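Immediate early genes, the genes that neurons transcribe within minutes of synaptic input, were described in 15 bulk RNA-seq libraries of mouse brain. The set held 10 genes, listed by name as activity-induced genes: Fos, Fosb, Junb, Egr1, Egr2, Arc, Npas4, Nr4a1, Dusp1 and Ptgs2. All 10 were on the deposited table of 27179 gene identifiers, and all 10 were among the 17151 genes that passed the filter on low counts. The lowest single count was 7 reads for Egr2 and the highest was 29318 reads for Arc.

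Immediate early genes need no new protein for their induction: calcium entry through NMDA receptors and L-type channels activates kinases that phosphorylate CREB and SRF-bound factors already sitting at their promoters. Most of the products are transcription factors that switch on a later wave of genes, and a few, such as Arc and Ptgs2, act directly at synapses. In the rodent forebrain these genes are the usual readout of recent neuronal firing, and their transcripts are short-lived.

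The mice were homozygous PLP-α-synuclein transgenics (TG), which carry human α-synuclein driven by the PLP promoter, a promoter active mainly in oligodendrocytes, and non-transgenic C57Bl/6 mice of the same age and sex (WT). All were 12 months old, were killed with an overdose of thiopental, and had each hemisphere snap-frozen before RNA extraction. The libraries were 4 from WT males, 4 from WT females, 4 from TG females and 3 from TG males. The sources used here give no interval from anaesthesia to freezing, no time of day and no handling. The human transgene itself was not analysed here, because the table holds mouse genes.

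The labels call every sample brain tissue, but region markers differed between libraries of the same group. The 4 region classes were formed from marker genes in CPM (reads of a gene relative to the scaled library total), none of them among the 10 genes. Hindbrain-marker libraries had at least 10 CPM of Hoxa5, a gene of the caudal brainstem and spinal cord: WT male 3, WT female 3, TG female 1 and TG female 4. Cortex-marker libraries, namely TG male 4, WT female 2 and WT male 4, had at least 100 CPM of Neurod6, a cortical pyramidal neuron gene. Olfactory-marker libraries had at least 10 CPM of Omp, a gene of olfactory sensory axons: WT males 1 and 2, WT females 1 and 4, TG female 2, and TG males 1 and 3. The remaining library, TG female 3, had 701 CPM of the cerebellar granule cell gene Gabra6 and stood alone as the cerebellum-marker class. Genotype was split 4 WT to 3 TG in the olfactory-marker class, 2 to 2 in the hindbrain-marker class and 2 to 1 in the cortex-marker class. Depth was 15170772 counts in the shallowest library, 17635366 in the median one and 35850998 in the deepest.

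Promoters of 8 of the 10 genes were on the RefSeq table of 300-base windows (GRCm38.p6, 250 bases before the transcription start and 50 after). No window was matched for Arc or Egr1. The windows are shown because the genes moved together across libraries, as described further on. Whether shared motifs have a part in that was not tested. The core of the cAMP response element, TGACG on either strand, was in at least 1 window of all 8, against 20.8% of all 32851 windows and 23% of the 27025 genes they belong to. A CArG box, the site of serum response factor, was present for Egr2 alone among these 8, against 1.63% of all windows and 1.81% of genes. Only exact matches to the consensus within the windows were counted, so sites further upstream are not covered. The full palindrome TGACGTCA, which contains the core on both strands, occurred for Dusp1 alone, against 1.79% of all windows and 2.03% of genes. A letter match is a description of the sequence and was not tested as a bound site. In the 5 windows below capitals mark the core and, in Egr2, the CArG box; each is read 5′ to 3′ on the gene's own strand.
Fos (chr12:85473640-85473939, plus strand): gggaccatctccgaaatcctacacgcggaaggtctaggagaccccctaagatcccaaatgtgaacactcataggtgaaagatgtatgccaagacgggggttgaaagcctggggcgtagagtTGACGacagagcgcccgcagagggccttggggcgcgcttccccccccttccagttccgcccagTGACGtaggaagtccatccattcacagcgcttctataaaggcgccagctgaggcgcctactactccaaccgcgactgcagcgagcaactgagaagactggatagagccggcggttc
Npas4 (chr19:4989922-4990221, minus strand): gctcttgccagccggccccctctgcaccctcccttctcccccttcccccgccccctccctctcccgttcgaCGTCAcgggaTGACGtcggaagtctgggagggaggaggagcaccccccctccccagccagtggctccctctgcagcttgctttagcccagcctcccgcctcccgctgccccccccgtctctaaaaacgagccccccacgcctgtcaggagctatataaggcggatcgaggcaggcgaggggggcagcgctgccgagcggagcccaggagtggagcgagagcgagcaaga
Egr2 (chr10:67537619-67537918, plus strand): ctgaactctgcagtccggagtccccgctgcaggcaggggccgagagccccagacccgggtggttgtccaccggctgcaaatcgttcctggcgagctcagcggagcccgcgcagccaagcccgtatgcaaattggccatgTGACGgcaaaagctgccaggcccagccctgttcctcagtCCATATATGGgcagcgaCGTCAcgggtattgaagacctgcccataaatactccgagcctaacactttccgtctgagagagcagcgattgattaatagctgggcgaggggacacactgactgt
Dusp1 (chr17:26508423-26508722, minus strand): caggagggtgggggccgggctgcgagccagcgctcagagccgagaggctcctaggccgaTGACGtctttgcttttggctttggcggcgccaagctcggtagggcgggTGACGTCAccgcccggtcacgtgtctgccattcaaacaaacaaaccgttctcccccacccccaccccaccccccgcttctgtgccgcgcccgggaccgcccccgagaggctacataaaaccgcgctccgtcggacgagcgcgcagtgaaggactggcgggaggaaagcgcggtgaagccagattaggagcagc
Ptgs2 (chr1:150099781-150100080, plus strand): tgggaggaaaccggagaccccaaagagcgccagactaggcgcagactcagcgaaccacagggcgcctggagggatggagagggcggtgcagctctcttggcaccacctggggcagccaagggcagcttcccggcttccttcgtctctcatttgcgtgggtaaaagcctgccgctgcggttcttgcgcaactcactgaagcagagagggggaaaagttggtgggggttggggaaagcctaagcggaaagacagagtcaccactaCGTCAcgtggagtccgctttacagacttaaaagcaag

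In Fos the cores began 129 and 66 bases before the start, and in Npas4 they began 179 and 169 bases before it. The Egr2 window shown, 1 of 5 for that gene, had cores 111 and 55 bases before the start on either side of a CArG box at 72 bases. Dusp1 held its palindrome 143 bases before the start and a further core at 191 bases. Ptgs2 held a single core, which began 13 bases after the start. The windows not shown had the core 60 bases before the start in Fosb, 106 in Junb, and at 4 places from 233 to 40 bases before it in Nr4a1.

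The levels of the 10 genes followed the region class. The sum of the 10 was 279 to 436 CPM in the 4 hindbrain-marker libraries, 309.6 CPM in the cerebellum-marker library, 688 to 3515 CPM in the olfactory-marker libraries and 1888 to 6202 CPM in the cortex-marker libraries. Hindbrain-marker libraries thus lay below both other classes without overlap, while the cortex-marker and olfactory-marker ranges overlapped. In bulk tissue fewer cells of a type and less RNA per cell cannot be told apart.

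**Figure D1:**
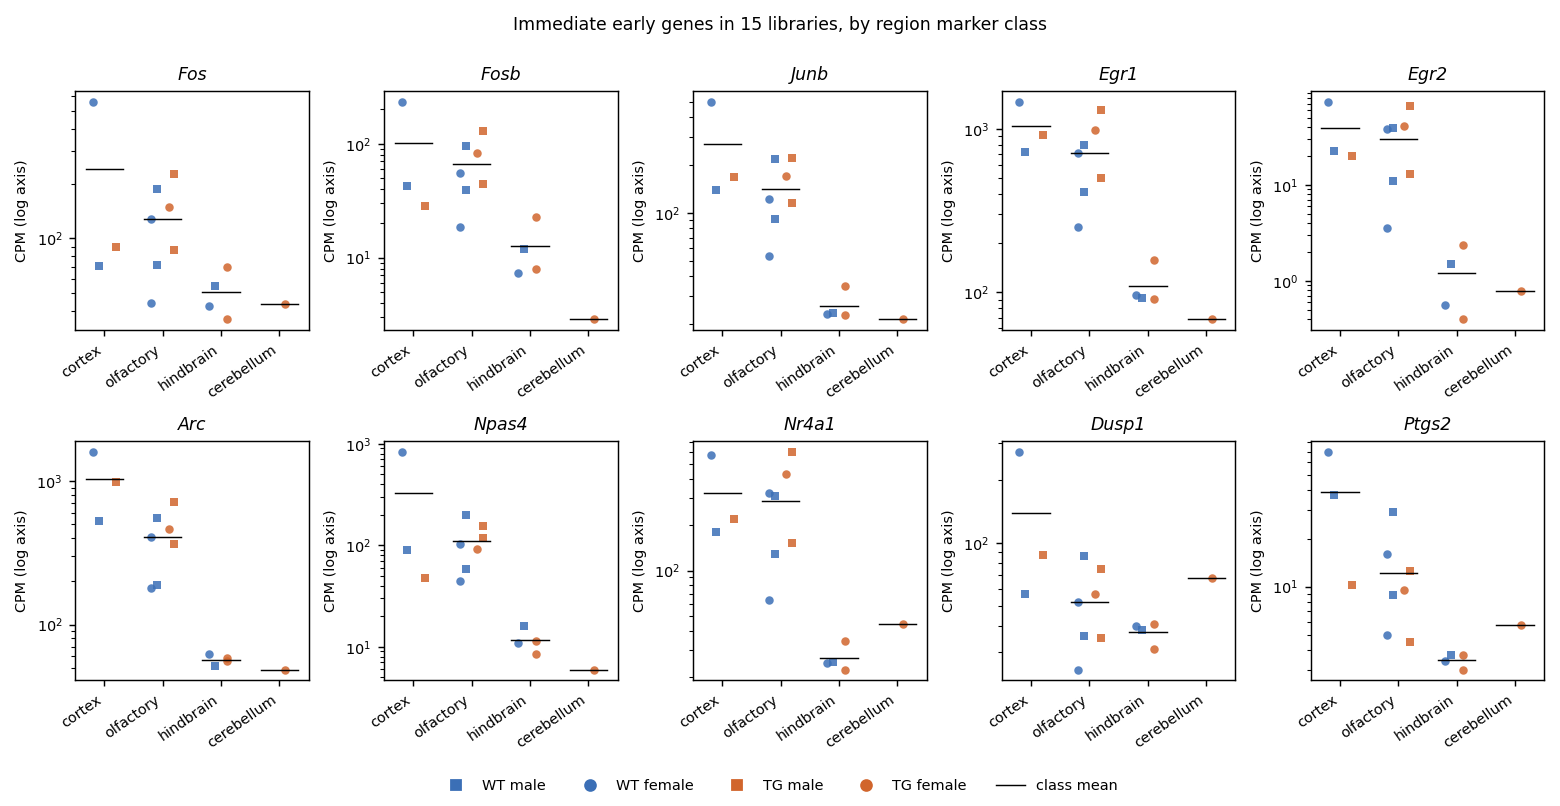
CPM of each immediate early gene on a log axis, 1 point per library, grouped by region marker class (olfactory, 7 libraries; cortex, 3; hindbrain, 4; cerebellum, 1) and coloured by genotype. The hindbrain-marker points sit lowest among the 3 replicated classes for Arc (51.1 to 62.3 CPM), and WT female 2 is the high point of the cortex-marker class in every panel.

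The AP-1 genes came first. Fos (chromosome 12, 85473890 to 85477274, GRCm38) encodes the partner that gives AP-1 its inducible activity. Its CPM was 70.5, 562 and 89.6 in the cortex-marker libraries (WT male 4, WT female 2, TG male 4), and 55.1, 42.4, 70.2 and 36.0 in hindbrain-marker libraries WT male 3, WT female 3, TG female 1 and TG female 4. In the olfactory-marker class it ran from 44.4 through a median of 128 to 224 CPM, and the cerebellum-marker library had 43.8 CPM. Only WT female 2 stood clear of the rest, and the hindbrain-marker and olfactory-marker ranges overlapped.

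Fosb (chromosome 7, 19302696 to 19310118), a Fos paralogue whose truncated ΔFosB product accumulates with repeated stimulation, had 42.2, 235 and 28.2 CPM in the cortex-marker libraries and 12.0, 7.34, 22.9 and 7.89 CPM in the hindbrain-marker libraries, in the same order. Its olfactory-marker values were 18.5, 55.8 and 129.9 CPM at the lowest, median and highest library, and the cerebellum-marker library had 2.87 CPM. Overlap with the hindbrain-marker class came from WT female 1 at 18.5 CPM and TG female 1 at 22.9 CPM. Junb (chromosome 8, 84976909 to 84978748), a Jun-family partner of Fos, had 139, 501 and 169 CPM in the cortex-marker class and 23.5, 23.2, 34.9 and 23 CPM in the hindbrain-marker class. Across the olfactory-marker libraries Junb ran from 53.3 through 123 to 222 CPM, wholly above the hindbrain-marker range, and it was 21.4 CPM in the cerebellum-marker library.

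The Egr genes encode zinc-finger activators that bind GC-rich sites. Egr1 (chromosome 18, 34861207 to 34864956), also called Zif268 and in wide use as a marker of plasticity, had 724, 1473 and 913 CPM in the cortex-marker libraries and 92.2, 95.8, 157 and 90.3 CPM in the hindbrain-marker libraries. It ran from 252 through 717 to 1314 CPM in the olfactory-marker class and was 68.2 CPM in the cerebellum-marker library. The hindbrain-marker values were all lower than any cortex-marker or olfactory-marker value. Egr2 (chromosome 10, 67534469 to 67542188), known also for its role in hindbrain segmentation and Schwann cell myelination, had 22.3, 73.4 and 20 CPM in the cortex-marker class against 1.51, 0.556, 2.39 and 0.397 CPM in the hindbrain-marker class. In the olfactory-marker class Egr2 spanned 3.56 to 65.4 CPM with a median of 37.7, the widest relative range of the 10 genes there (18.4 times). Both Egr genes therefore showed no overlap between the hindbrain-marker class and the other replicated classes.

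Npas4 and Nr4a1 are the other 2 transcription factors. Npas4 (chromosome 19, 4984353 to 5003439) is a neuron-restricted bHLH-PAS factor, induced selectively by calcium influx, that shapes inhibitory synapses. It had 88.8, 836 and 48.1 CPM in the cortex-marker libraries and 16.0, 10.9, 11.4 and 8.52 CPM in the hindbrain-marker libraries, and 5.97 CPM in the cerebellum-marker library. Olfactory-marker values were 44.0, 102 and 201 CPM at the lowest, median and highest library. Without WT female 2, the cortex-marker values of Npas4 lay inside the olfactory-marker range. Nr4a1 (chromosome 15, 101253902 to 101274795), the orphan nuclear receptor Nur77, had 179, 575 and 216 CPM in the cortex-marker class and 25.3, 24.6, 34.4 and 22.4 CPM in the hindbrain-marker class. Its olfactory-marker range was 63.7 to 602 CPM with a median of 306, and the cerebellum-marker library had 44.3 CPM. Its highest library was TG male 3, while that of the other 9 genes was WT female 2.

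Arc, Dusp1 and Ptgs2 encode effectors. Arc (chromosome 15, 74669081 to 74672570), whose mRNA travels to dendrites and whose protein drives AMPA receptor endocytosis, had 528, 1603 and 989 CPM in the cortex-marker libraries. The 4 hindbrain-marker values of Arc were 51.1, 62.3, 58.7 and 55.3 CPM, a spread of 1.22 times between lowest and highest, and the cerebellum-marker library had 48.6 CPM. In the olfactory-marker class Arc ran from 179 through 408 to 717 CPM. Arc thus had the tightest hindbrain-marker values of the 10 genes, and they lay below every olfactory-marker and cortex-marker value.

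Dusp1 (chromosome 17, 26505591 to 26508472), a phosphatase that switches off MAP kinases and is also induced by glucocorticoids and stress, had 56.7, 274 and 87.0 CPM in the cortex-marker class and 38.2, 40.0, 41.0 and 30.9 CPM in the hindbrain-marker class. It ran from 24.7 through 51.8 to 86.2 CPM in the olfactory-marker class and was 68.0 CPM in the cerebellum-marker library. The hindbrain-marker values of Dusp1 lay inside its olfactory-marker range. Ptgs2 (chromosome 1, 150100031 to 150108234), the inducible cyclooxygenase of excitatory forebrain neurons, had 37.2, 70.0 and 10.3 CPM in the cortex-marker libraries and 3.72, 3.42, 3.03 and 3.75 CPM in the hindbrain-marker libraries. Its olfactory-marker values ran from 4.50 through 9.49 to 29.3 CPM, and the cerebellum-marker library had 5.73 CPM. The gap between the hindbrain-marker and olfactory-marker ranges of Ptgs2 was narrow, 3.75 against 4.50 CPM.

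Levels between genes were compared per kilobase of exon. In the cortex-marker class the order of mean CPM per kb was Arc at 340.1 ± 176 (SD, n = 3), Egr1 at 231 ± 86.9, Junb at 149 ± 111, Nr4a1 at 121 ± 81.6, Fos at 114 ± 132, Npas4 at 89.6 ± 123, Dusp1 at 58.7 ± 49.6, Fosb at 26.9 ± 30.5, Egr2 at 12.1 ± 9.48 and Ptgs2 at 8.79 ± 6.71. In the olfactory-marker class Egr1 at 159 ± 80.9 (SD, n = 7) and Arc at 134 ± 63.1 again led, with Egr2 at 9.42 ± 6.86 and Ptgs2 at 2.74 ± 1.91 last. In the hindbrain-marker class Egr1 at 24.3 ± 7.22 (SD, n = 4), Fos at 24.2 ± 7.14 and Arc at 18.6 ± 1.56 had the highest means, and Egr2 was lowest at 0.381 ± 0.29. In the cortex-marker and olfactory-marker classes all 9 neighbours in the order differed by less than 1 SD of the higher gene. In the hindbrain-marker class 4 of 9 did, the exceptions being Arc above Dusp1, Junb above Nr4a1, Nr4a1 above Fosb, Npas4 above Ptgs2 and Ptgs2 above Egr2.

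The class differences were then tested with edgeR's quasi-likelihood test, with genotype and sex in the fit and Benjamini-Hochberg adjustment over all 17151 genes. Between the hindbrain-marker and olfactory-marker libraries, 8 of 10 genes were called lower and none higher at an adjusted p under 0.05, where 33.7% of all tested genes were called lower and 33.1% higher. The median log2 difference of the 10 was -2.68, against 0.004 over all tested genes. Egr2 had the largest difference at -4.82 ± 0.98 (SE; adjusted p = 0.00114), followed by Nr4a1 at -3.51 ± 0.65 (adjusted p = 0.000562), Npas4 at -3.37 ± 0.84 (adjusted p = 0.00426) and Arc at -2.89 ± 0.46 (adjusted p = 0.000183). Egr1 at -2.77 ± 0.44, Fosb at -2.59 ± 0.77, Junb at -2.54 ± 0.51 and Ptgs2 at -1.81 ± 0.59 also passed. Fos did not pass at -1.47 ± 0.65 (adjusted p = 0.0662), nor did Dusp1 at -0.57 ± 0.47 (adjusted p = 0.301). Every hindbrain-marker library was below every olfactory-marker library for 7 of the 10 genes, against 25.7% of all tested genes. Fos passed without WT female 2 (-1.20, adjusted p = 0.0224) or WT female 1 (-1.77, adjusted p = 0.0243), and Ptgs2 no longer passed without WT male 3 (adjusted p = 0.0853) or WT female 3 (adjusted p = 0.0583).

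Between the hindbrain-marker and cortex-marker libraries all 10 genes were called lower, where 27.5% of tested genes were lower and 28.2% higher, with a median log2 difference of -3.44. The values ran from -1.89 ± 0.54 (SE) for Dusp1 to -5.24 ± 1.06 for Egr2, and Arc had the smallest adjusted p (-4.27 ± 0.52, adjusted p = 3.77e-05). Every hindbrain-marker library was below every cortex-marker library for all 10, against 29.3% of tested genes. For Fos the gap was very narrow, 70.2 CPM in TG female 1 against 70.5 CPM in WT male 4. Without WT female 2 the calls numbered 7, since Fos (-0.36, adjusted p = 0.646), Fosb (-1.25, adjusted p = 0.186) and Dusp1 (-0.69, adjusted p = 0.279) no longer passed. Fos also no longer passed without WT female 3 (-2.08, adjusted p = 0.0621) or TG female 4 (-2.09, adjusted p = 0.0539).

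Between the cortex-marker and olfactory-marker libraries all 10 log2 differences were above 0, with a median of 0.84, and 3 genes were called higher, where 25% of tested genes were higher and 23.9% lower. These were Ptgs2 at 1.42 ± 0.52 (SE; adjusted p = 0.0415), Arc at 1.39 ± 0.41 (adjusted p = 0.0161) and Dusp1 at 1.32 ± 0.47 (adjusted p = 0.0375). For none of the 10 was every cortex-marker library above every olfactory-marker library, against 19.9% of tested genes. All 3 calls ended without WT female 2, at 0.79 for Ptgs2 (adjusted p = 0.318), 0.73 for Arc (adjusted p = 0.209) and 0.32 for Dusp1 (adjusted p = 0.581). The remaining genes then stood between -1.03 for Fosb and 0.15 for Egr1. The Dusp1 call also ended without any 1 of 8 other libraries (WT males 1 and 3, WT females 1 and 4, TG females 1 and 2, TG males 1 and 4; adjusted p up to 0.0762). The Ptgs2 call also ended without any 1 of 10 others (WT males 1, 3 and 4, WT females 1, 3 and 4, TG females 1, 2 and 4, TG male 1; adjusted p up to 0.0829).

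**Figure D2:**
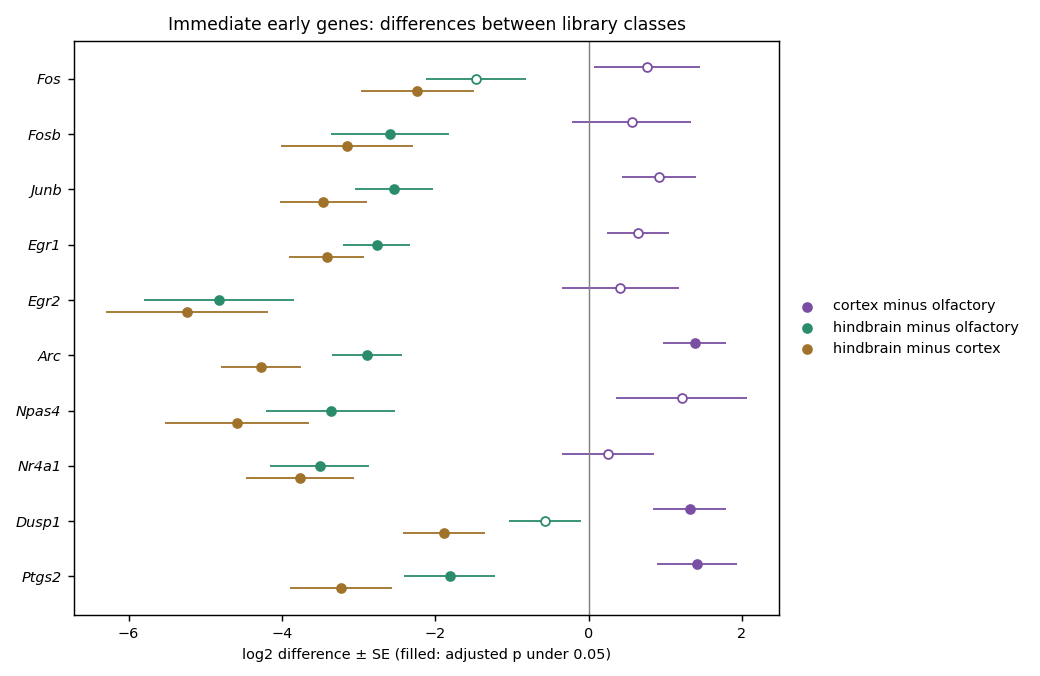
log2 difference with its SE for each immediate early gene in the 3 comparisons of region classes, with filled symbols where the adjusted p was under 0.05. All values against the hindbrain-marker class lie left of 0, from -0.57 for Dusp1 to -5.24 for Egr2, and the cortex-marker minus olfactory-marker values lie between 0.26 and 1.42.

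Markers of several cell types moved with the same classes. The 10 oligodendrocyte markers summed to 17919 to 23242 CPM in the hindbrain-marker libraries. They summed to 2631 to 5377 CPM in the cortex-marker libraries and 1896 to 3557 CPM in the olfactory-marker libraries. All 10 were called higher in the hindbrain-marker than in the cortex-marker class (28.2% of tested genes were) and the olfactory-marker class (33.1%). The 12 excitatory neuron markers summed to 208 to 252, 3793 to 4304 and 1198 to 1939 CPM in the same order of classes. The 12 pan-neuron markers summed to 11107 to 12369 CPM in the hindbrain-marker libraries, above the 8595 to 9366 CPM of the olfactory-marker libraries and overlapping the 11588 to 14292 CPM of the cortex-marker libraries. They were mixed in direction: 7 were called higher and 4 lower than in the olfactory-marker class (33.1% and 33.7% of tested genes were). Against the cortex-marker class 4 were higher and 4 lower (28.2% and 27.5%). In the cortex-marker and olfactory-marker libraries no gene of these 3 lists was at 0, and in the hindbrain-marker libraries 1 excitatory neuron marker was at 0 in WT female 3 and in TG female 1. Their part in the class differences was not tested.

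**Figure D3:**
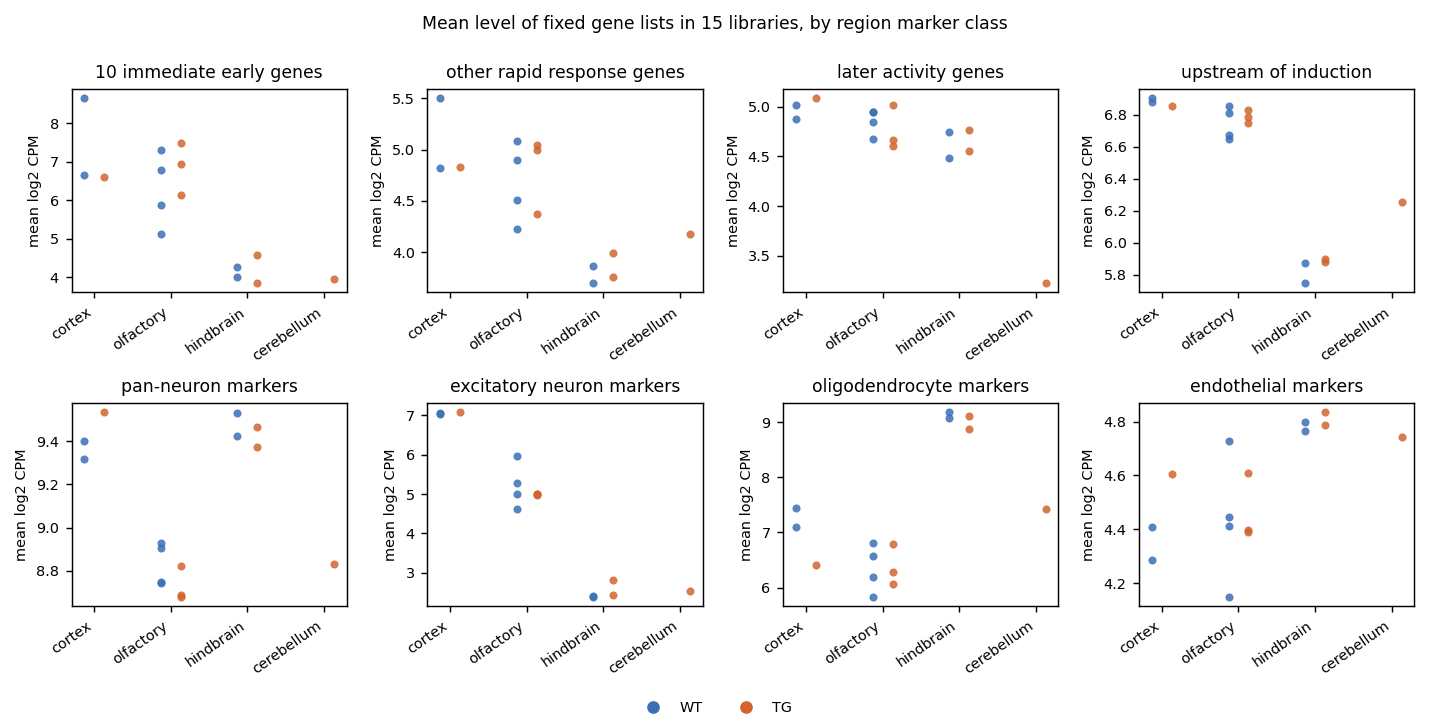
Mean log2 CPM of the 10 immediate early genes and of fixed gene lists in each library, grouped by region marker class and coloured by genotype. The mean of the immediate early genes runs from 3.85 in TG female 4 to 8.65 in WT female 2.

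Within a region class the 10 genes were among the most variable genes measured. Their SD of log2 CPM about the class means, over the 14 libraries of the 3 replicated classes, ran from 0.66 for Arc to 1.30 for Egr2, against a median of 0.18 over all tested genes. These values lay at percentiles 95.6 to 99.6 of tested genes. Without WT female 2 the SD ran from 0.53 for Dusp1 to 1.28 for Egr2, at percentiles 91.3 to 99.5. In the olfactory-marker class the ratio of highest to lowest library was 3.49 for Dusp1, 4.01 for Arc, 5.05 for Fos, 7.03 for Fosb and 9.45 for Nr4a1.

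Libraries were high or low for the genes as a set. All 10 genes were above their class mean in WT female 2, WT male 2 and TG male 3, and none was in WT female 1 and WT male 1. The mean deviation of the 10 was 1.34 in WT female 2, 0.96 in TG male 3, 0.79 in WT male 2 and -1.41 in WT female 1, in log2 units. The high libraries came from both genotypes, and the lowest olfactory-marker libraries were WT. Over the 45 gene pairs Pearson's r of the deviations had a median of 0.862 and ran from 0.459 for Arc with Ptgs2 to 0.978 for Egr1 with Nr4a1. Without WT female 2 the median was 0.873 and the range 0.315 to 0.98, and in the 7 olfactory-marker libraries alone the median was 0.923 and the range 0.593 to 0.995. These correlations describe libraries that share depth and scaling for every gene, and no p is given.

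**Figure D4:**
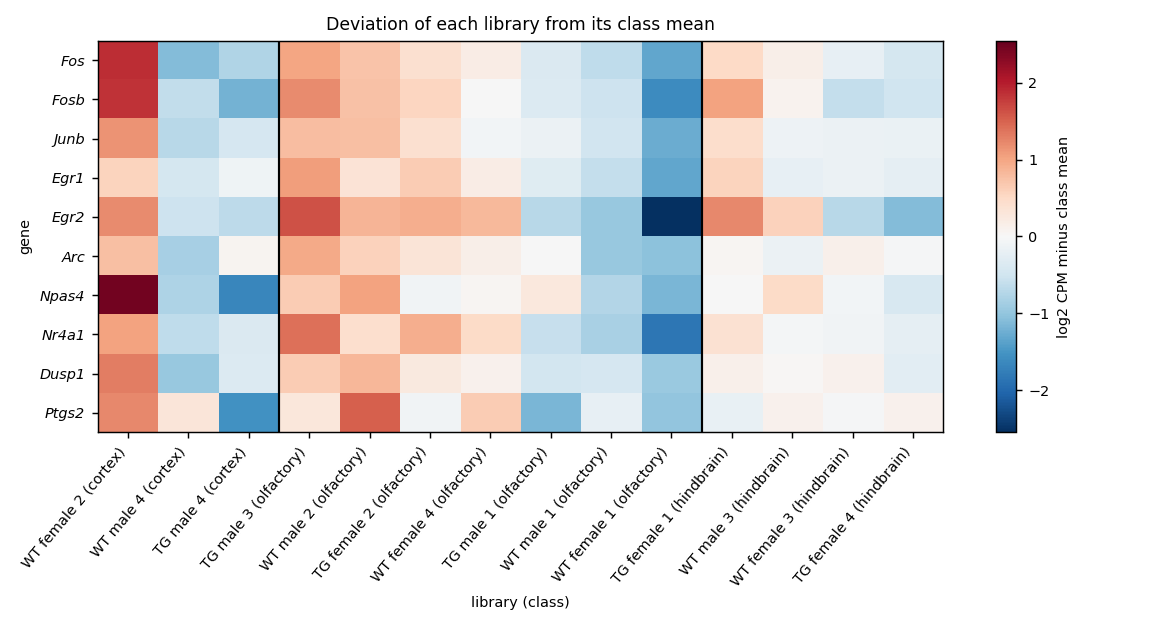
Heat map of log2 CPM minus the class mean for each immediate early gene (rows) in the 14 libraries of the 3 replicated classes (columns); red is above and blue below the class mean. WT female 2 is above its class mean in every row (mean 1.34) and WT female 1 below in every row (mean -1.41).

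Correlation with the mean of the other 9 genes was highest for Fos (r = 0.972, rho = 0.978) and Junb (r = 0.972, rho = 0.974) and lowest for Ptgs2 (r = 0.672, rho = 0.56). Npas4 was next lowest at r = 0.828 and rho = 0.824. Ptgs2 departed most from the set in WT male 4, where its deviation was 0.31 while the mean of the 10 was -0.64. It also departed in TG male 4 (-1.53 against -0.70), TG male 1 (-1.16 against -0.38) and WT male 2 (1.52 against 0.79). Npas4 had its largest deviations in WT female 2, at 2.45, and in TG male 4, at -1.67.

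WT female 2 was the highest of the 15 libraries for 9 of the 10 genes. The ratio to the next highest library was 4.17 for Npas4, 3.15 for Dusp1, 2.51 for Fos, 2.26 for Junb, 1.88 for Ptgs2, 1.81 for Fosb, 1.62 for Arc and 1.12 for both Egr1 and Egr2, and for Nr4a1 it was 0.955 of TG male 3. Against the higher of the other 2 cortex-marker libraries, the ratio was 9.42 for Npas4, 6.27 for Fos, 5.56 for Fosb, 3.29 for Egr2, 3.15 for Dusp1, 2.96 for Junb, 2.66 for Nr4a1, 1.88 for Ptgs2, 1.62 for Arc and 1.61 for Egr1. The excess was uneven across the set, and Npas4 had the largest ratio in both comparisons. Beside it, mean log2 CPM of 20 glucocorticoid response genes was 4.74 in WT female 2 and 4.77 and 4.68 in the other cortex-marker libraries, WT male 4 and TG male 4. For 12 heat shock genes it was 6.48 against 6.49 and 6.68, and for 12 hypoxia genes 4.58 against 4.67 and 4.73. Later activity genes such as Bdnf and Nptx2 had a mean of 4.88 against 5.02 and 5.08, while 36 other rapid response genes had 5.50 against 4.82 and 4.83. The later list was mixed, so its mean does not speak for each gene. Correlation of its genes with the mean deviation of the 10 ran from r = -0.443 for Scg2 to 0.763 for Lonrf1. The 12 excitatory neuron markers stood at 7.03 against 7.05 and 7.08. Its total of 19956555 counts lay within the range of the other libraries.

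Genotype was compared first over all 15 libraries with sex in the fit. None of the 10 genes was called, where 0.111% of tested genes were (19 genes), and none of their WT and TG ranges was separate. As values that did not pass, 9 of 10 log2 differences of TG minus WT were below 0, with a median of -0.48. Ptgs2 had the largest at -1.64 ± 0.67 (SE; adjusted p = 1, unadjusted p = 0.028), with 3.42 to 70.0 CPM in WT (median 12.4) and 3.03 to 12.5 CPM in TG (median 5.73). Npas4 was next at -1.50 ± 1.09, with WT from 10.9 to 836 CPM (median 73.5) and TG from 5.97 to 153 CPM (median 48.1). Without WT female 2 only Ptgs2 (-0.84) and Npas4 (-0.30) stayed below 0, with Fos, for instance, at 0.27 and Fosb at 0.31. Of the 10, 1 gene, Ptgs2, had an unadjusted p under 0.05 in this fit, and DESeq2 also called none of the 10.

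With region class in the fit, the count of called genes over the table was 85 (0.496%), and again none was among the 10. The median log2 difference of the 10 was 0.21, and 7 were above 0. Ptgs2 at -0.91 ± 0.47 (SE; adjusted p = 0.656) and Egr1 at 0.48 ± 0.32 (adjusted p = 0.744) were the farthest from 0. In this fit, within either class and in the test between classes, 0 of the 10 had an unadjusted p under 0.05, and DESeq2 called 0 of the 10 in each.

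Within the olfactory-marker class, where 4 WT and 3 TG libraries could be set side by side, none of the 10 was called, against 0.245% of tested genes (42 genes). Fos was 71.8, 186, 44.4 and 128 CPM in WT male 1, WT male 2, WT female 1 and WT female 4, and 149, 86.7 and 224 CPM in TG female 2, TG male 1 and TG male 3. Egr1 was 409.9, 799.8, 252 and 717 CPM in the WT libraries and 983, 504 and 1314 CPM in the TG libraries, in the same order. Arc was 188, 557, 179 and 408 CPM against 461, 365 and 717 CPM. In each of these genes the highest library was a TG one and the lowest a WT one, but the ranges overlapped. For Npas4 (201 CPM), Dusp1 (86.2 CPM) and Ptgs2 (29.3 CPM) the highest library was WT male 2. The lowest for Ptgs2 was TG male 1 at 4.50 CPM. The genes moved together across these libraries, so they are not independent results.

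Nr4a1 had the largest difference in that class at 0.98 ± 0.65 (SE; adjusted p = 0.703), with 128, 306, 63.7 and 321 CPM in WT and 432, 152 and 602 CPM in TG. Ptgs2 was the single gene below 0, at -0.76 ± 0.58 (adjusted p = 0.713), with 8.82, 29.3, 5.01 and 16.0 CPM in WT and 9.49, 4.50 and 12.5 CPM in TG. The others were Egr2 at 0.81 ± 0.84, Egr1 at 0.79 ± 0.47, Fosb at 0.71 ± 0.71, Arc at 0.65 ± 0.50, Fos at 0.52 ± 0.71, Junb at 0.48 ± 0.54, Npas4 at 0.24 ± 0.72 and Dusp1 at 0.17 ± 0.57. The median of the 10 was 0.59, against 0.006 over all tested genes. Each SE is of the order of the difference itself, so neither a change nor its absence is shown. The 10 striatal neuron markers varied within the class, from 305 to 1757 CPM in sum, and their part was not tested.

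Within the hindbrain-marker class, with 2 WT and 2 TG libraries, none of the 10 was called, against 0.07% of tested genes. Both TG libraries were from females, while the WT libraries were WT male 3 and WT female 3. Genotype was thus partly confounded with sex, and the sex term of the fit was shared with the other classes. The 10 log2 differences of TG minus WT ran from -0.38 to 0.71 with a median of 0.04. The TG libraries were not alike: TG female 1 was above its class mean for 8 of the 10 genes and TG female 4 for 1. For Egr1 they had 157 and 90.3 CPM, on the high side of and below the WT values of 92.2 and 95.8 CPM. The test of the genotype difference between the hindbrain-marker and olfactory-marker classes called none of the 10, against 0.0117% of tested genes, with values from -0.94 to 0.75. In the cortex-marker class the single TG library allowed no test: TG male 4 had lower CPM than both WT libraries for Fosb, Egr2, Npas4 and Ptgs2 and lay between them for the other 6.

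**Figure D5:**
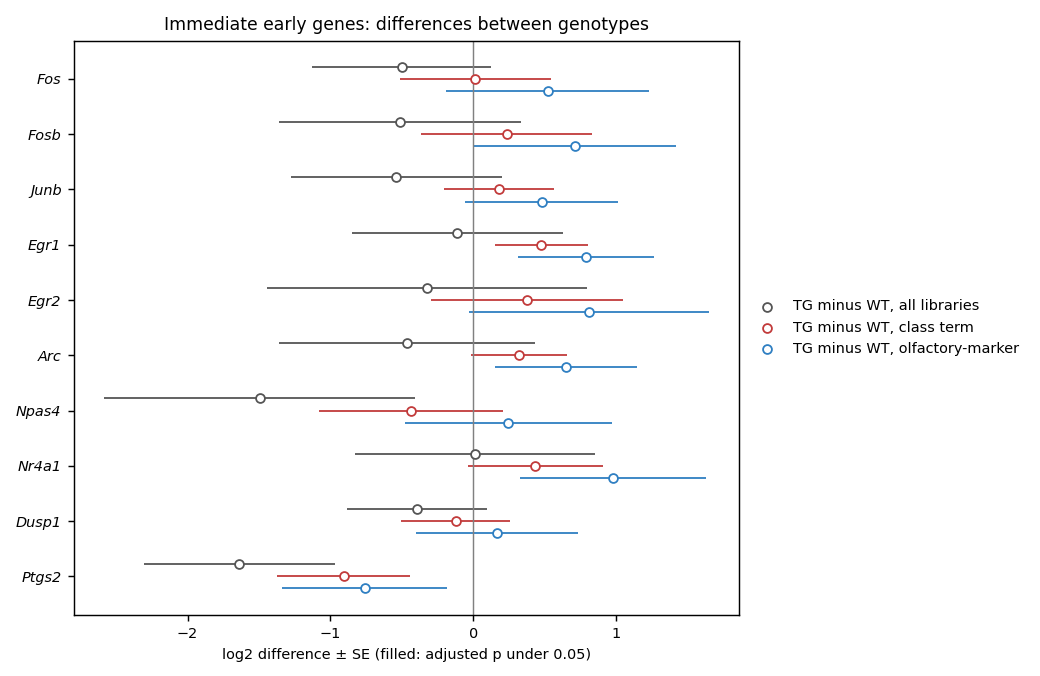
log2 difference of TG minus WT with its SE for each immediate early gene over all libraries, with region class in the fit, and within the olfactory-marker class. No symbol is filled, since none had an adjusted p under 0.05; values run from -1.64 for Ptgs2 over all libraries to 0.98 for Nr4a1 in the olfactory-marker class.

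Sex was tested with genotype and region class in the fit. None of the 10 genes was called, against 0.07% of tested genes, and 0 had an unadjusted p under 0.05 or were called by DESeq2. All 10 log2 differences of male minus female were below 0, from -0.39 to -0.12, with a median of -0.27 and adjusted p-values from 0.936 to 0.979. WT female 2, the highest library for 9 of the 10 genes, was among the females. The genes moved together, so the shared sign is not 10 independent results.

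Other genes of the activity pathway were read from fixed lists. Of 36 other rapid response genes tested, 20 were lower and 6 higher in the hindbrain-marker than in the olfactory-marker libraries, with a median log2 difference of -0.96. The shares over all tested genes were 33.7% lower and 33.1% higher. Lower ones included Egr4 at -4.78 ± 0.63 (SE) and Egr3 at -4.13 ± 0.54, paralogues of Egr1, the ERK phosphatase gene Dusp5 at -3.58 ± 0.29 and the Nr4a1 paralogue Nr4a3 at -3.28 ± 0.75. Higher ones included Maff at 1.17 ± 0.19, a small Maf factor, Ier3 at 1.10 ± 0.22, Plk3 at 1.07 ± 0.18 and Dusp2 at 0.84 ± 0.17. The list was therefore mixed in direction where the 10 genes were not. In the cortex-marker class 13 of the 36 were higher and 4 lower than in the olfactory-marker class. Over all tested genes 25% were higher and 23.9% lower. Of the list, Ier5 at 1.48 ± 0.16 and Dusp6 at 1.40 ± 0.26 were higher and Atf3 at -2.70 ± 0.80 was lower.

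The genes listed as upstream of induction, receptors, channels and kinases among them, mostly differed in the same direction as the 10 genes. Of 33 tested, 25 were lower and 2 higher in the hindbrain-marker than in the olfactory-marker libraries, with a median log2 difference of -0.73. Over all tested genes 33.7% were lower and 33.1% higher. The largest were Mef2c, an activity-regulated transcription factor, at -4.11 ± 0.19 (SE), Camk2a, a calcium-dependent kinase of excitatory neurons, at -2.83 ± 0.21, the NMDA receptor subunit gene Grin2b at -2.76 ± 0.14 and the L-type channel gene Cacna1d at -2.32 ± 0.15. The ribosomal S6 kinase gene Rps6ka1 was higher, at 0.97 ± 0.09. Against the cortex-marker libraries 24 of the 33 were lower and 2 higher, where 27.5% of tested genes were lower and 28.2% higher. The part of these genes in the class differences was not tested.

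Of 22 genes of the later wave tested, 7 were higher and 7 lower in the hindbrain-marker than in the olfactory-marker libraries, near the shares of 33.1% and 33.7% over all tested genes, with a median of -0.07. Cort at -3.11 ± 0.34 (SE), a neuropeptide of cortical interneurons, and Nptx2 at -2.19 ± 0.22, a secreted synaptic pentraxin, were among the lower genes, and Crh at 1.67 ± 0.30 and Sst at 1.41 ± 0.44, both neuropeptides, were among the higher. Of 23 partners and repressors, 11 were lower and 6 higher, with a median of 0.01. They included the Egr corepressor gene Nab2 at -2.02 ± 0.14 and the Nr4a1 paralogue Nr4a2 at -3.14 ± 0.48, both lower, and the prostaglandin E2 receptor gene Ptger4 at 2.66 ± 0.26, higher. In the comparisons of genotype over all libraries, with region class, and within the olfactory-marker and hindbrain-marker classes, edgeR called 0 of the 112 genes of these 4 lists, where 0.111%, 0.496%, 0.245% and 0.07% of all tested genes were called. At an unadjusted p under 0.05 there were 1, 9, 8 and 7 of them over all libraries, with region class, within the olfactory-marker class and within the hindbrain-marker class, or 0.893%, 8.04%, 7.14% and 6.25% of the 112, against 1.83%, 8.4%, 7.75% and 5.81% of all tested genes.

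The 6 genes whose deviations from the class means were most like the mean of the 10 genes were chosen by a fixed rule among 15124 genes whose mean reached 1 CPM, over the 14 libraries. Gadd45b, a DNA-damage and demethylation-linked gene, had r = 0.951 and rho = 0.93, and Btg2, an antiproliferative gene, had r = 0.937 and rho = 0.925. Egr4 followed at r = 0.927 and rho = 0.886, Ier2 at r = 0.906 and rho = 0.873, Nfkbid at r = 0.905 and rho = 0.925, and Egr3 at r = 0.893 and rho = 0.864. In the 7 olfactory-marker libraries alone r was 0.944, 0.946, 0.969, 0.984, 0.913 and 0.996 in that order of genes. Of the 6, 5 were already on the list of other rapid response genes, the exception being Nfkbid, which encodes an atypical IκB protein. Btg2 was 268 CPM in WT female 2 and 36.6 CPM in WT female 1, the libraries at the ends of the deviations of the 10 genes.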

How the data were processed

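Total RNA from frozen mouse hemispheres was sequenced in 15 libraries after ribosomal depletion per the labels' protocols, although the labels name the molecule polyA RNA. The authors deposited 1 table of raw counts per gene identifier; per the submitters' processing notes STAR 2.7.5b was the aligner, GRCm38 the build and featureCounts of Subread the counter, with counting settings not given in the sources used here. Whether overlapping and antisense genes were separated by strand is therefore not known. Of 27179 identifiers, 25275 matched RefSeq and 18 more were named through GENCODE.

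Counts were filtered with filterByExpr over the 4 genotype-by-sex groups (17151 genes kept), scaled by TMM and tested with edgeR 4.0.16 in R 4.3.3 (robust quasi-likelihood F-test, Benjamini-Hochberg over all genes, threshold 0.05). The fits held genotype and sex; genotype, sex and region class; or class-by-genotype means and sex. The biological coefficient of variation was 43.1%, 14.2% and 13.9% in turn. CPM are TMM-scaled, log2 values use a prior count of 2, and fold changes are fitted log2 differences. The cerebellum-marker library was kept in the fits and, as the only 1 of its class, informs no class comparison. Class cut-offs were 10 CPM of Hoxa5, 100 of Gabra6, 100 of Neurod6 and 10 of Omp. The 10 genes, the gene lists and the class cut-offs were chosen with earlier results of these data known. All 10 genes are named in each comparison. Of other lists up to 4 called genes per direction by fold are named, apart from 1 that is not reported here, with the 6 genes most like the set by Pearson's r of deviations from class means. Alternatives were DESeq2 1.42.0, limma-voom 3.58.1, RLE size factors, no filter, no sex term, a replicate block, fewer classes, and each library left out. All pairs of libraries differed beyond sampling noise (lowest chi-square per gene 6.27). No label states that each library is a separate animal, and p-values then reflect only the spread among libraries, which may be technical. The leading number of the sample titles is shared within each genotype-by-sex group and differs between groups. What that number stands for cannot be told apart from genotype and sex. The scripts were tested on simulated data.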

Additional observations from a re-analysis of the deposited data

Results flagged for a closer look

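Single libraries stood far from the rest of their group in 18 of 70 gene-by-group sets examined with Dixon's test on CPM. The genotype and genotype-by-sex sets pooled libraries of different region classes. In those sets region class and library cannot be told apart, and no rate expected by chance applies to the 18 marks. The sets share libraries and the genes move together, so the marks are not independent.

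WT female 2 accounted for 9 of the 18. Among all WT libraries it was farthest out for Fos at 562 CPM, Fosb at 235, Junb at 501, Arc at 1603, Npas4 at 836 and Dusp1 at 274 CPM. Among the 4 WT females the same values of Fos, Npas4 and Dusp1 stood apart. It was 1 of 2 WT libraries of the cortex-marker class.

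TG female 2 stood apart among TG females for Junb at 171 CPM, Egr1 at 983, Egr2 at 40.7, Arc at 461, Npas4 at 92.3 and Nr4a1 at 432 CPM. It was the only olfactory-marker library among them, the others being of the hindbrain-marker and cerebellum-marker classes, so region class and library cannot be told apart there.

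WT male 2 stood apart among WT males for Fos at 186 CPM. Within the hindbrain-marker class TG female 1 stood apart for Junb at 34.9 CPM and Egr1 at 157 CPM.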

How the results depend on the processing

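RLE size factors, limma-voom and the fit of the olfactory-marker libraries alone kept every direction and call of the 10 genes that was recomputed under them. Under DESeq2 the genes called over the table were 40 for genotype over all libraries, 175 with region class, 115 within the olfactory-marker class, 36 within the hindbrain-marker class and 34 for the difference between those classes, against 19, 85, 42, 12 and 2; Fos additionally passed between hindbrain-marker and olfactory-marker libraries (-1.46, adjusted p = 0.0326). Without the filter 1 of the 3 cortex-marker against olfactory-marker calls was left, since Dusp1 (adjusted p = 0.0759) and Ptgs2 (adjusted p = 0.0807) did not pass, nor did Fos between hindbrain-marker and cortex-marker libraries (-2.23, adjusted p = 0.0513). Without the hindbrain-marker and cerebellum-marker libraries 7 genes were called for genotype over all libraries, and Fosb (0.026), Egr1 (0.42), Egr2 (0.33) and Arc (0.30) turned above 0. In these cases the cause was not tested.

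Deviations from the genotype-by-sex group means were correlated between same-numbered libraries at -0.629 to 0.917 (median -0.025), with 7 of 21 over 0.1. Other pairs had a median of -0.047, with 23 of 63 over 0.1. Those groups mix region classes, so these correlations cannot show whether replicate numbers pair the samples. With the replicate block, genotype over all libraries gave Fos 0.073, Fosb 0.022, Junb 0.024, Egr1 0.199, Egr2 0.132, Arc 0.061 and Dusp1 0.13; with region class as well, 53 genes were called and Dusp1 was 0.14. The block left 2 genes called within the olfactory-marker class (Fos -0.18, Fosb -0.079, Dusp1 -0.37), 1 within the hindbrain-marker class and 0 for their difference; Ptgs2 between cortex-marker and olfactory-marker libraries (1.12, adjusted p = 0.091) and Fos between hindbrain-marker and cortex-marker libraries (-1.97, adjusted p = 0.0663) did not pass.

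With each library left out in turn, the genes called were 56 to 86 for genotype with region class (56 without TG male 4), 18 to 69 within the olfactory-marker class, 4 to 15 within the hindbrain-marker class and 0 to 25 for their difference; of the 10, 0 to 3 were called between cortex-marker and olfactory-marker libraries. Genotype over all libraries ranged from -0.85 to 0.27 for Fos, -1 to 0.31 for Fosb, -0.96 to 0.21 for Junb, -0.71 to 0.36 for Egr1, -1.32 to 0.26 for Egr2, -0.87 to 0.29 for Arc, -0.71 to 0.49 for Nr4a1 and -0.57 to 0.31 for Dusp1. With region class the ranges were -0.35 to 0.41 for Fos, -0.21 to 0.71 for Fosb, -0.023 to 0.44 for Junb, -0.17 to 0.74 for Egr2, -0.71 to 0.059 for Npas4 and -0.33 to 0.18 for Dusp1. Between cortex-marker and olfactory-marker libraries they were -0.84 to 1.45 for Fos, -1.03 to 1.43 for Fosb, -0.042 to 1.37 for Junb, -0.59 to 1.01 for Egr2, -0.94 to 2.21 for Npas4 and -0.56 to 0.70 for Nr4a1, the lowest each time without WT female 2. Dusp1 within the olfactory-marker class ran from -0.19 to 0.75. Egr2, at 0.397 to 2.39 CPM, was the gene nearest the limit of depth in the hindbrain-marker class.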

Other observations

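Stress-linked gene lists were also read across the region classes. Of 20 glucocorticoid response genes, 14 were higher and 4 lower in the hindbrain-marker than in the olfactory-marker libraries, with a median log2 difference of 0.76; over all tested genes 33.1% were higher and 33.7% lower. Of 12 heat shock genes 9 were higher and 1 lower, with a median of 0.37. Both medians were above 0, while that of the 10 immediate early genes was -2.68. Within the olfactory-marker class Plin4, a lipid droplet gene on the glucocorticoid list, was the only gene of that list called for genotype, higher in TG at 2.06 ± 0.28 (SE; adjusted p = 0.0248).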
